A study of Mus musculus with 6 samples.

Results

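The genes described here make up the core of the MHC class I antigen presentation pathway in mouse: the class I heavy chains H2-K1 and H2-D1, their partner B2m, the peptide transporter Tap1 and Tap2, the loading factor Tapbp, the immunoproteasome subunits Psmb8, Psmb9 and Psmb10, and the regulator Nlrc5. These 10 genes were taken by name from a table of 41053 gene names, and all 10 passed the filter on low counts that left 13604 genes for testing. RNA was sequenced from naive B cells of the spleen, in 3 libraries from TET2 knockout mice and 3 libraries from TET2 wild-type mice, all of the C57BL/6 strain and numbered 2, 3 and 4 within each genotype. TET2 oxidizes 5-methylcytosine in DNA, and the comparison asks which transcripts differ when it is lost. The labels give neither the age and sex of the mice, nor how and in which cells the Tet2 allele was deleted, nor whether each library came from its own mouse. The spread behind each p-value is thus one between libraries and could be technical.

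Class I molecules show peptides from inside the cell to CD8+ T cells. Proteins are cut by the proteasome, whose catalytic subunits are replaced by the immunoproteasome subunits in lymphoid cells and under interferon, and TAP carries the peptides into the endoplasmic reticulum, where tapasin helps to load them onto a heavy chain paired with beta-2-microglobulin. NLRC5 is a transactivator of class I genes, and interferon signalling induces much of the pathway. Naive B cells express class I molecules at their surface.

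Transcripts of all 10 genes had higher estimates in knockout than in wild-type B cells, with a median log2 change of 0.39 and a range of 0.26 (Tap2) to 0.55 (Nlrc5). No single gene passed the threshold of 0.05 on the adjusted p of edgeR's quasi-likelihood F test over all 13604 genes, which called 25 genes (0.184%) higher in knockout. At an unadjusted p under 0.05, 9 of the 10 genes were higher in knockout, against 7.85% of all tested genes. In 7 of the 10 genes every knockout library lay above every wild-type library, as it did in 10.2% of all tested genes. The 10 genes were chosen with earlier results of these data known, and knockout library 2 was the highest for all 10. These counts are thus a description and not 10 separate tests. DESeq2, which called 1.45% of the tested genes higher, passed H2-K1, Psmb8 and Psmb9, whereas limma-voom passed 0 of the 10. Over all tested genes the median log2 change was -0.01 and 48.8% of the estimates were above 0.

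Total counts ranged from 39872470 to 45401781 in the knockout libraries and from 35101788 to 43343789 in the wild-type libraries. Tet2 transcripts averaged 58.1 ± 7.47 CPM in knockout cells, against 71.6 ± 13.5 CPM in wild-type cells (SD over 3 libraries each), and this did not pass the test (edgeR adjusted p = 0.408). With a term for the libraries numbered 4 Tet2 passed as lower in knockout (log2 change -0.29, edgeR adjusted p = 0.0420). CPM is the count relative to the library total, with TMM-scaled library sizes. The Y-linked gene Kdm5d had 23.3 to 34.9 CPM in knockout libraries, against at most 0.0571 CPM in wild-type libraries, and Xist had 847 ± 42.5 CPM in knockout, against 1489 ± 47.1 CPM in wild type. Genotype and sex thus cannot be told apart for any difference reported here. On the second principal component both libraries numbered 4 lay on 1 side and the other 4 libraries on the other side, and it held 33.9% of the variance. The naive follicular B cell markers in the table summed to 10217 to 12175 CPM in knockout, against 9378 to 10468 CPM in wild type. The T cell gene Cd3e was at most 0.0722 CPM in knockout, against 0.0571 CPM in wild type. Cd3d, of the same list, had 0.636, 0.361 and 0.278 CPM in knockout libraries 2, 3 and 4. In wild-type libraries 2, 3 and 4 it had 0.159, 0.227 and 0.257 CPM. In knockout libraries the summed markers reached at most 2.19 CPM for NK cells, 14.5 CPM for macrophages and monocytes, 5.99 CPM for dendritic cells, 0.843 CPM for granulocytes and 15.2 CPM for erythroid cells. In wild-type libraries they reached at most 1.93 CPM for NK cells, 16.6 CPM for macrophages and monocytes, 5.07 CPM for dendritic cells, 0.432 CPM for granulocytes and 19.5 CPM for erythroid cells.

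Levels per length spanned a wide range. RPKM, the CPM per kilobase of exon computed from the deposited summed exon length, put B2m first with 2959 ± 372 RPKM in knockout and 2139 ± 588 RPKM in wild type (SD, n = 3 each). In wild type it held place 10 among 23019 detected gene names. H2-K1 followed with 1128 ± 157 RPKM in knockout and 845 ± 88.1 RPKM in wild type, and H2-D1 with 933 ± 99.6 RPKM in knockout and 750 ± 61.2 RPKM in wild type. These heavy chains held places 37 and 42 in wild type. Their ranges over the 6 libraries overlapped, though H2-K1 lay above H2-D1 within every library. Next came Tapbp at 142 RPKM in knockout and 116 RPKM in wild type, Psmb8 at 122 RPKM in knockout and 92.8 RPKM in wild type, Psmb10 at 117 RPKM in knockout and 89.8 RPKM in wild type, and Tap1 at 105 RPKM in knockout and 83.2 RPKM in wild type. Neighbours among these 4 overlapped in their ranges. Within every library Tapbp lay above the others, whereas the order of Psmb8, Psmb10 and Tap1 changed between libraries and is not resolved. Psmb9 had 63.5 RPKM in knockout and 43.7 RPKM in wild type, Tap2 had 50.7 RPKM in knockout and 42.5 RPKM in wild type, and Nlrc5 was lowest with 33.6 ± 11.9 RPKM in knockout and 22.9 ± 6.83 RPKM in wild type. The ranges of Tap1 and Psmb9 overlapped over the 6 libraries, as did those of Psmb9 and Tap2 and those of Tap2 and Nlrc5. Within every library Tap1 lay above Psmb9 and Tap2 above Nlrc5. Psmb9 lay above Tap2 in all but wild-type library 2.

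**Figure D1:**
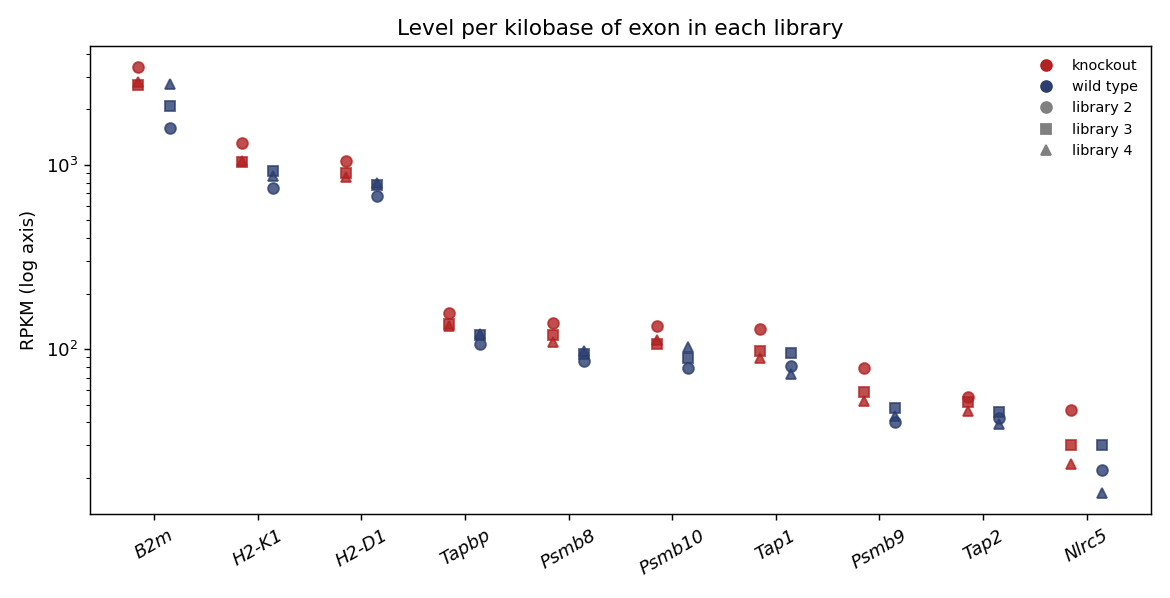
Level of the 10 genes in each library as RPKM on a log axis, knockout points left of wild-type points, ordered by the wild-type mean. B2m, H2-K1 and H2-D1 lie above 679 RPKM in every library, and the other 7 genes lie below 158 RPKM.

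The heavy chains present the peptide at the cell surface. H2-K1 (chr17:33996017-34000333, minus strand, GRCm38) had 3413, 2689 and 2719 CPM in knockout libraries 2, 3 and 4, against 1951, 2399 and 2264 CPM in wild-type libraries 2, 3 and 4. All knockout libraries lay above all wild-type libraries, and the nearest pair was knockout library 3 and wild-type library 3. The log2 change was 0.42 (SE 0.12, 95% interval 0.14 to 0.69), a 1.33-fold difference (edgeR adjusted p = 0.222), and DESeq2 gave an adjusted p of 0.0499. H2-D1 (chr17:35262730-35267499, plus strand) had 2698, 2315 and 2210 CPM in knockout libraries, against 1752, 2007 and 2041 CPM in wild-type libraries. The genotypes did not overlap here either, and the log2 change was 0.32 (SE 0.11, edgeR adjusted p = 0.271). H2 class I genes resemble one another, and the header of the count table names no option for reads that map to several places, so reads shared between heavy-chain genes may have been lost and the split between these genes is uncertain.

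B2m encodes beta-2-microglobulin, the invariant light chain of every classical class I molecule. B2m (chr2:122147686-122153083, plus strand) had 2910, 2316 and 2408 CPM in knockout libraries, against 1357, 1796 and 2365 CPM in wild-type libraries. The genotypes overlapped because wild-type library 4 lay above knockout library 3, and the wild-type SD of 505 CPM exceeded the knockout SD of 320 CPM. The log2 change was 0.47 (SE 0.18, edgeR adjusted p = 0.328). Without wild-type library 4 it was 0.69 and passed the test (edgeR adjusted p = 0.0293), and without wild-type library 2 it was 0.29.

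The promoters of the genes presenting the peptide are shown because their regulatory letters are known from textbook work. They include a kappaB site bound by NF-kB and an interferon-stimulated element bound by IRF factors. The CRE core and Y box belong to the module through which NLRC5 acts with RFX and NF-Y. Whether any of these letters bears on the differences between genotypes was not tested. The sequences are from RefSeq (GRCm38.p6), read 5′ to 3′ on the strand of the gene. Of the 10 genes, 8 had an entry in the promoter table, and those without are Tap2 and Nlrc5. Capitals mark the motifs found on either strand: kappaB (GGGATTCCC), the interferon-stimulated core (GAAANNGAA or GAANNGAAA), the Y box (CCAAT) and the CRE core (TGACG). For H2-K1 the stretch is chr17:34000348-34000547 (minus strand) and for B2m it is chr2:122147487-122147685 (plus strand), both ending just before the transcription start.
H2-K1: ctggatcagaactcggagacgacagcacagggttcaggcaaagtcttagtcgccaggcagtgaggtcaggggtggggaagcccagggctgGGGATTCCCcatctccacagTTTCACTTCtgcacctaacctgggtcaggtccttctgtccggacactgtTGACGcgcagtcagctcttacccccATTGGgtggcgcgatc
B2m: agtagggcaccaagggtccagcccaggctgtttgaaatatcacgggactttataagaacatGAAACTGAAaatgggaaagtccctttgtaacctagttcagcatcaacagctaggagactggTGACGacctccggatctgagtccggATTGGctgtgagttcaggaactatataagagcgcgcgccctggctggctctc

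In both sequences the marked letters come in the same order toward the start, with the interferon-stimulated core followed by the CRE core and then the Y box. Windows of 300 bases around the start were searched in 32851 promoters. The interferon-stimulated core stood in 3 of the 8 promoters (H2-K1, H2-D1 and B2m), against 14.8% of all promoters. Its second form was added to the search after the H2-K1 sequence had been seen. With GAAANNGAA alone the core stood in B2m only, against 8.56% of all promoters. The exact kappaB letters GGGATTCCC stood in H2-K1 and H2-D1 and in 0.353% of all promoters. Other forms of the kappaB site were not searched, and the share covers this form alone. Promoters without these letters, that of B2m among them, may thus hold such a site unmarked. The Y box stood in 6 of the 8 (37.4% of all promoters) and the CRE core in 5 of the 8 (20.8% of all promoters). A match describes letters in this window and is no evidence of binding in these cells.

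The heavy chains share the stretch from the kappaB letters through the interferon-stimulated core almost letter for letter, with 29 of 30 bases equal. It lies at chr17:34000428-34000457 (minus strand) for H2-K1 and at chr17:35262924-35262953 (plus strand) for H2-D1. It is upstream of the RefSeq start of H2-D1 but inside the H2-D1 span of the count table.
H2-K1: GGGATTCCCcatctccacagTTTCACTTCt
H2-D1: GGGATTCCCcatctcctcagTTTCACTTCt

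TAP1 and TAP2 form the pump that carries peptides across the membrane of the endoplasmic reticulum. Tap1 (chr17:34187553-34197225, plus strand) had 703, 532 and 489 CPM in knockout libraries, against 443, 524 and 401 CPM in wild-type libraries. Knockout library 2 stood far above the rest, and knockout library 4 lay below wild-type library 3. The log2 change of Tap1 was 0.33 (SE 0.15, edgeR adjusted p = 0.367), and 0.16 without knockout library 2. Tap2 (chr17:34203527-34216321, plus strand) had 207, 194 and 174 CPM in knockout libraries, against 160, 173 and 149 CPM in wild-type libraries. These groups did not overlap, though knockout library 4 and wild-type library 3 nearly met. The log2 change was 0.26 (SE 0.09, edgeR adjusted p = 0.277). Of the Tap2 exon bases, 18.5% were shared with antisense genes. The header names neither a strand option nor an option to count reads that overlap several genes, so reads in the shared bases may have been lost.

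Tapbp encodes tapasin, which bridges TAP and the empty class I molecule. Tapbp (chr17:33915899-33929288, plus strand) had 520, 448 and 441 CPM in knockout libraries, against 353, 392 and 397 CPM in wild-type libraries. Every knockout library lay above every wild-type library, and the log2 change was 0.30 (SE 0.09, edgeR adjusted p = 0.223). Other genes, Zbtb22 on the same strand among them, covered 726 of its 3296 exon bases.

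Psmb8, Psmb9 and Psmb10 encode the inducible catalytic subunits LMP7, LMP2 and MECL-1. Psmb8 (chr17:34197721-34201454, plus strand) had 380, 325 and 298 CPM in knockout libraries, against 236, 258 and 267 CPM in wild-type libraries. Its log2 change of 0.40 (SE 0.10, 95% interval 0.17 to 0.62) had the lowest p of the 10 genes (edgeR adjusted p = 0.163). With a term for the libraries numbered 4, which called 2.59% of the tested genes higher, Psmb8 and Tap2 passed (edgeR adjusted p = 0.0418 for Psmb8 and 0.0333 for Tap2). Psmb9 (chr17:34181988-34187764, minus strand) had 290, 215 and 191 CPM in knockout libraries, against 146, 175 and 158 CPM in wild-type libraries, a log2 change of 0.54 (SE 0.14, edgeR adjusted p = 0.186). Psmb10 (chr8:105935728-105938392, minus strand) had 170, 136 and 142 CPM in knockout libraries, against 99.6, 113 and 129 CPM in wild-type libraries, a log2 change of 0.39 (SE 0.12, edgeR adjusted p = 0.222). In all 3 subunits the genotypes did not overlap and knockout library 2 was highest. Without that library the log2 change was 0.34 for Psmb9 and 0.29 for Psmb8.

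Psmb9 and Tap1 are read away from each other, and their RefSeq starts lie 226 bases apart. The count table places the gene ends otherwise, with Psmb9 reaching past the start of Tap1. There their exons overlap by 212 bases, which is 5.79% of Psmb9 and 3.87% of Tap1. Reads in that overlap may have been lost in the same way. The 30 bases just upstream of the RefSeq start of Psmb9 (chr17:34187331-34187360, GRCm38.p6) are shown, read on the plus strand, that of Tap1. They are part of the stretch between the RefSeq starts of both genes, and the Y box is in capitals. In the count table they lie inside the span of Psmb9.
Psmb9 and Tap1: tttCCAATcagcggctgcgcgcggtgcagg

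Nlrc5 had the largest estimate and the least certain one. Nlrc5 (chr8:94472763-94527272, plus strand) had 358, 229 and 183 CPM in knockout libraries, against 168, 231 and 127 CPM in wild-type libraries. Wild-type library 3 lay above knockout libraries 3 and 4, and the log2 change of 0.55 (SE 0.29, 95% interval -0.15 to 1.25) did not pass the test (edgeR adjusted p = 0.468). Without knockout library 2 its log2 change was 0.23 (edgeR adjusted p = 0.865), and without wild-type library 3 it was 0.79 (edgeR adjusted p = 0.545).

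**Figure D2:**
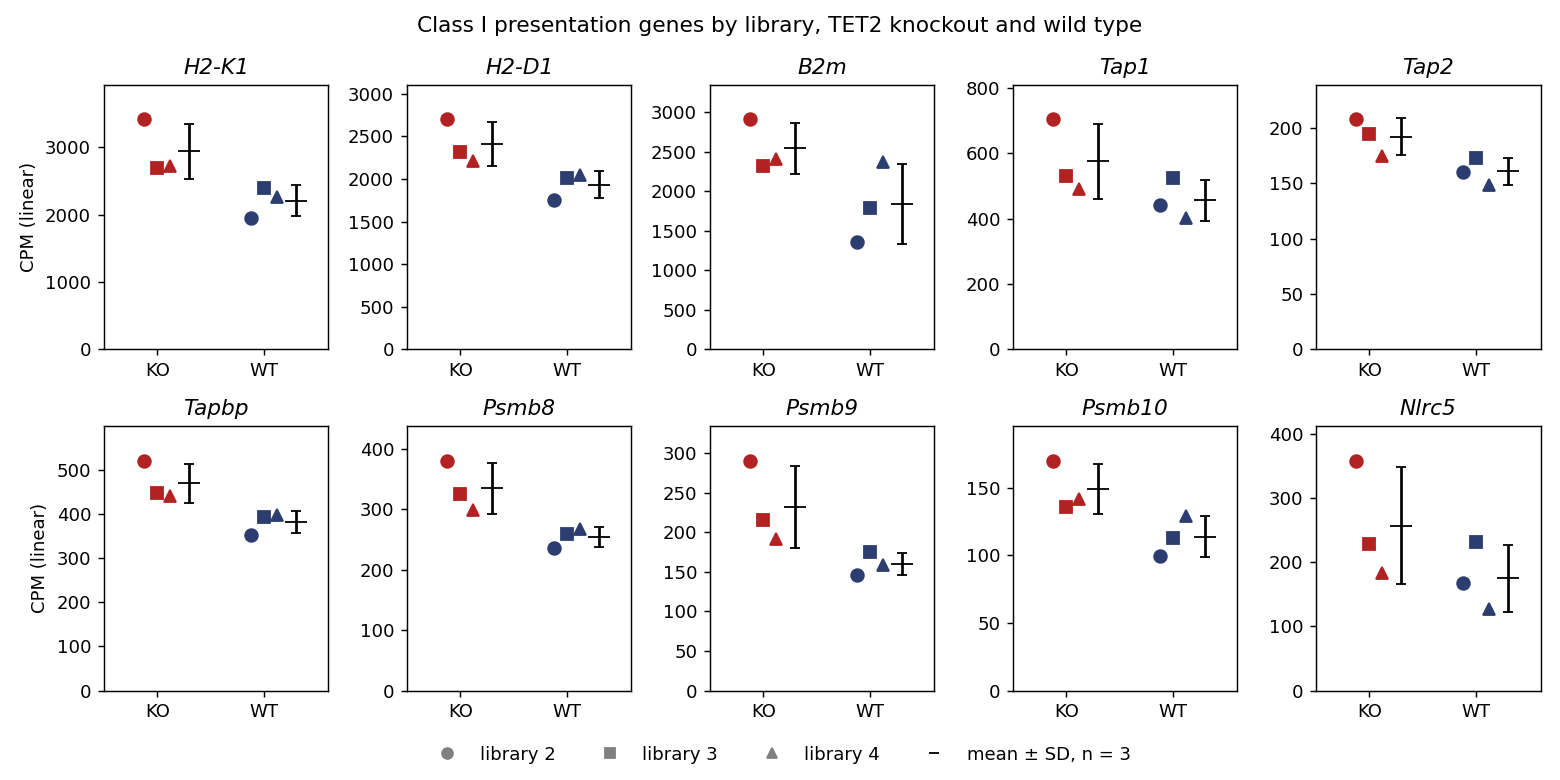
CPM of each of the 10 genes by library on linear axes from 0, knockout left of wild type, with the mean and SD (n = 3 each) beside the points and a marker shape for each library number. Knockout library 2 is the highest library in all 10 panels, and the genotypes overlap for B2m, Tap1 and Nlrc5.

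Knockout library 2 was the highest of the 6 libraries for all 10 genes, wild-type library 2 was the lowest for 7 genes and wild-type library 4 the lowest for 3. The mean log2 deviation of the 10 genes from their average over the libraries was 0.44, 0.12 and 0.03 in knockout libraries 2, 3 and 4, against -0.33, -0.08 and -0.18 in wild-type libraries 2, 3 and 4. Without knockout library 2 the median log2 change of the 10 genes was 0.25. The plasma cell gene Igj, which encodes the J chain, had 32.9, 21.3 and 11.1 CPM in knockout libraries, against 7.95, 13.3 and 4.91 CPM in wild-type libraries, and was also highest in knockout library 2. Summed over the 4 plasma cell markers in the table (Sdc1, Prdm1, Igj and Xbp1), the level was 148 to 171 CPM in knockout, against 128 to 168 CPM in wild type. Xbp1 held most of this sum, with 118 to 127 CPM in knockout, against 108 to 150 CPM in wild type. The 6 T cell markers summed to 49.1 to 65.9 CPM in knockout libraries, against 46.8 to 50.5 CPM in wild-type libraries, and Lck held 48.5 to 64.8 CPM of this in knockout, against 46.2 to 50.1 CPM in wild type. The part of other cells in the difference was not tested, and fewer cells of a type and less RNA per cell cannot be told apart in bulk RNA.

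The difference was also read by library number. Between knockout library 2 and wild-type library 2 the 10 differences had a median of 0.73 and ran from 0.37 (Tap2) to 1.10 (B2m). Between the libraries numbered 3 they had a median of 0.20, with 9 of 10 above 0, and ran from -0.01 (Nlrc5) to 0.37 (B2m), with 0.02 for Tap1. Between the libraries numbered 4 they had a median of 0.19 and ran from 0.03 (B2m) to 0.52 (Nlrc5), all above 0. By its median the pair numbered 2 stood above the other pairs, and the median of 0.50 over the libraries numbered 2 and 3 together rests largely on it. The interaction of genotype with library number 4 set the difference in that pair against the difference in the libraries numbered 2 and 3 pooled. With edgeR it called 0 of the 10 genes, against 1.19% of all tested genes. In that edgeR test 1 gene, Psmb8, had an unadjusted p under 0.05, and limma-voom called 0 of the 10. Because the test averages numbers 2 and 3, it cannot single out the pair numbered 2. When the fit was limited to the libraries numbered 2 and 3, H2-D1, Tap2, Tapbp and Psmb8 passed the threshold, in a comparison that called 13.6% of 13800 tested genes higher.

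**Figure D3:**
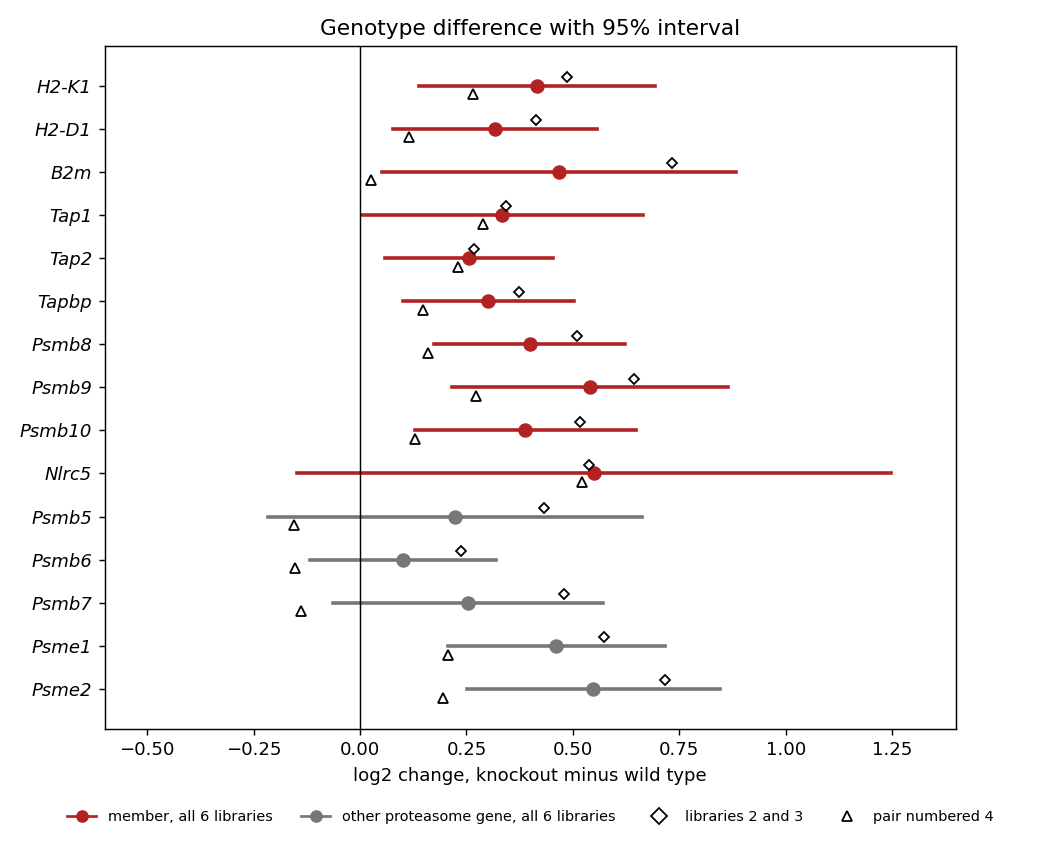
Log2 change, knockout minus wild type, with its 95% interval from edgeR for the 10 genes (red) and for constitutive subunits and activators of the proteasome (grey), with open symbols for the libraries numbered 2 and 3 and for the pair numbered 4. All 10 red estimates lie above 0, the interval of Nlrc5 includes 0, and the pair numbered 4 lies below 0 for Psmb5, Psmb6 and Psmb7.

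Each immunoproteasome subunit takes the place of a constitutive one: Psmb8 that of Psmb5, Psmb9 that of Psmb6 and Psmb10 that of Psmb7. The ratio of their counts within a library needs no scaling between libraries. The log2 ratio of Psmb9 to Psmb6 was 1.44, 1.05 and 0.92 in knockout libraries, against 0.74, 0.94 and 0.50 in wild-type libraries. Knockout library 4 lay just below wild-type library 3, and the difference of 0.41 gave p = 0.2 in the exact two-sided permutation test, where 3 against 3 libraries allow no p below 0.1. For Psmb10 to Psmb7 the mean log2 ratio was 0.97 ± 0.12 in knockout and 0.86 ± 0.14 in wild type (SD, n = 3 each), a difference of 0.11 (exact permutation p = 0.4). For Psmb8 to Psmb5 it was 5.25 ± 0.16 in knockout and 5.11 ± 0.35 in wild type (SD, n = 3 each), a difference of 0.14 (exact permutation p = 0.7) that turned to -0.05 without wild-type library 4. Adjusted over the 3 ratios, the p-values of the exact permutation test were 0.6 for Psmb9 to Psmb6, 0.6 for Psmb10 to Psmb7 and 0.7 for Psmb8 to Psmb5. With this number of libraries the exact test could not have passed a threshold of 0.05, whatever the ratios. Psmb5 was scarce, with 8.76 ± 0.65 CPM in knockout, against 7.52 ± 2.16 CPM in wild type (SD, n = 3 each).

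**Figure D4:**
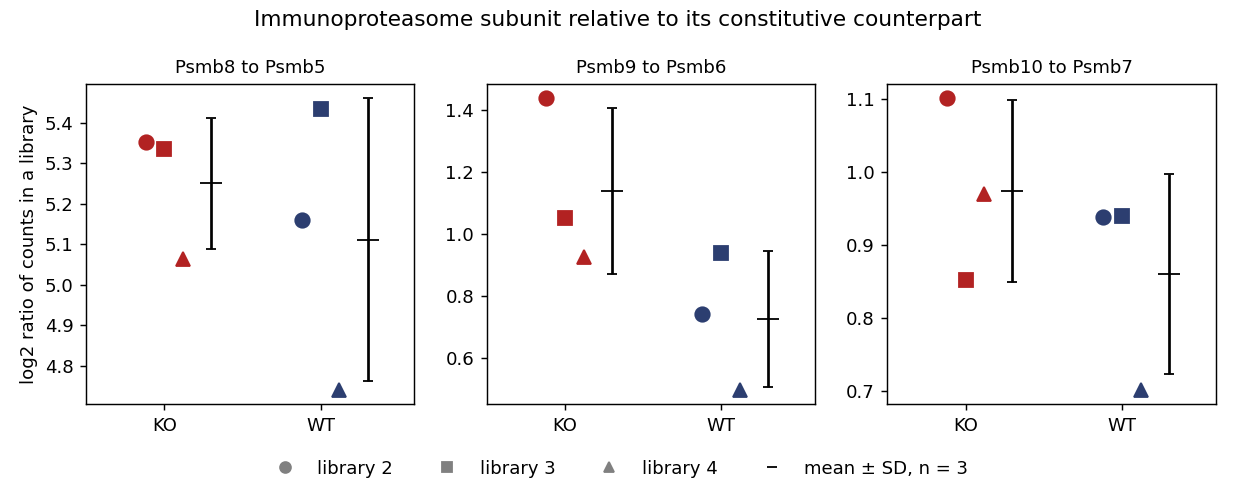
Log2 ratio of the counts of each immunoproteasome subunit to its constitutive counterpart in each library, knockout left of wild type, with mean and SD (n = 3 each); the axes do not start at 0. The genotypes overlap in all 3 panels, and wild-type library 4 has the lowest ratio in each.

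Ratios between partners overlapped between the genotypes. The log2 ratio of H2-K1 to H2-D1 counts was 0.29 ± 0.06 in knockout and 0.19 ± 0.06 in wild type (SD, n = 3 each; exact permutation p = 0.2), and that of Tap1 to Tap2 was higher by 0.07 in knockout (exact permutation p = 0.6). For H2-K1 to B2m the knockout libraries lay close together at 0.21 ± 0.03, against 0.29 ± 0.31 in wild type, where library 4 stood at -0.06 (exact permutation p = 0.7).

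The rest of the pathway was read from 8 gene lists, and edgeR called 0 genes in any of them at the adjusted threshold. Every gene of these lists with an unadjusted p under 0.05 was higher in knockout. The share to set beside each count is the 7.85% of all tested genes that were higher at that threshold. These lists, too, were chosen with earlier results of these data known. In each of the 8 lists the median difference was smaller between the libraries numbered 4 than between the libraries numbered 2 and 3. Among 16 tested genes of other class I and class I-like chains, 14 had positive estimates, with a median log2 change of 0.23 and 6 at an unadjusted p under 0.05. H2-T22, a nonclassical chain, had 130 ± 26.7 CPM in knockout, against 95.1 ± 8.12 CPM in wild type (SD, n = 3 each), a log2 change of 0.45 (edgeR adjusted p = 0.235). H2-T23, which encodes Qa-1, had a log2 change of 0.23 (edgeR adjusted p = 0.307). The negative estimates were those of Cd1d1 and Cd1d2, lipid-presenting chains named here after their values were seen.

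Of 11 chaperones and trimming enzymes of the endoplasmic reticulum, 10 had positive estimates, with a median of 0.20 and 4 at an unadjusted p under 0.05. The median difference was 0.40 between the libraries numbered 2 and 3, with 10 of 11 above 0. Between the libraries numbered 4 it was -0.04, with 3 of 11 above 0. Tapbpl, the tapasin-related protein TAPBPR, had 78.7 ± 15.4 CPM in knockout, against 57.7 ± 4.48 CPM in wild type (SD, n = 3 each), a log2 change of 0.45 without overlap (edgeR adjusted p = 0.219). Calreticulin (Calr) had a log2 change of 0.38 (edgeR adjusted p = 0.317), which was 0.61 between the libraries numbered 2 and 3 and -0.05 between the libraries numbered 4.

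Constitutive, core and regulatory genes of the proteasome were listed apart from the inducible subunits. The 3 constitutive catalytic subunits had a median of 0.22 with 0 at an unadjusted p under 0.05. Log2 changes were 0.22 for Psmb5, 0.10 for Psmb6 and 0.25 for Psmb7. Among 16 other core subunits and assembly factors 15 estimates were positive, with a median of 0.27 and 6 at an unadjusted p under 0.05, among them the core subunit Psma7 (0.28) and the assembly chaperone Psmg1 (0.27). All 17 genes of the 19S regulatory particle had positive estimates, with a median of 0.17. Of these, 8 reached an unadjusted p under 0.05, against 7.85% of all tested genes. Between the libraries numbered 2 and 3 the median difference was 0.26 for the 19S particle, with all 17 above 0. Between the libraries numbered 4 it was 0.02, with 11 of 17 above 0. For the other core subunits and assembly factors these medians were 0.40 (15 of 16 above 0) and 0.002 (8 of 16). For the constitutive catalytic subunits they were 0.43 (3 of 3) and -0.15 (0 of 3). With a term for the libraries numbered 4, which called 2.59% of the tested genes higher, 3 of the 17 passed. One was Psmd14, named after its value was seen. The others were the base subunits Psmd2 (0.26) and Psmc5 (0.25), both with an edgeR adjusted p of 0.0393.

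The activators of the proteasome include Psme1 and Psme2, which encode the interferon-inducible PA28 cap. Psme2 had 78.9, 62.8 and 60.5 CPM in knockout libraries, against 39.5, 46.0 and 52.8 CPM in wild-type libraries. Psme1 had 293, 230 and 221 CPM in knockout libraries, against 165, 184 and 192 CPM in wild-type libraries. Neither overlapped between genotypes, and the log2 changes were 0.55 for Psme2 and 0.46 for Psme1 (edgeR adjusted p = 0.157 for both). Both passed DESeq2, with adjusted p = 0.0141 for Psme2 and 0.0209 for Psme1. Over the 4 activators tested 3 estimates were positive and the median was 0.30.

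Of 7 cytosolic peptidases, which trim or destroy peptides, 6 had positive estimates with a median of 0.06, and 3 reached an unadjusted p under 0.05. Blmh had a log2 change of 0.27 (edgeR adjusted p = 0.294) and Dpp3 one of 0.17 (edgeR adjusted p = 0.324).

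Of 15 transcription factors of class I genes, 11 had positive estimates with a median of 0.04, and 4 reached an unadjusted p under 0.05. Irf1, an interferon-induced activator of class I promoters, had 336, 217 and 236 CPM in knockout libraries, against 169, 208 and 166 CPM in wild-type libraries. Its log2 change was 0.54 (SE 0.16, edgeR adjusted p = 0.224), and the genotypes did not overlap.

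**Figure D5:**
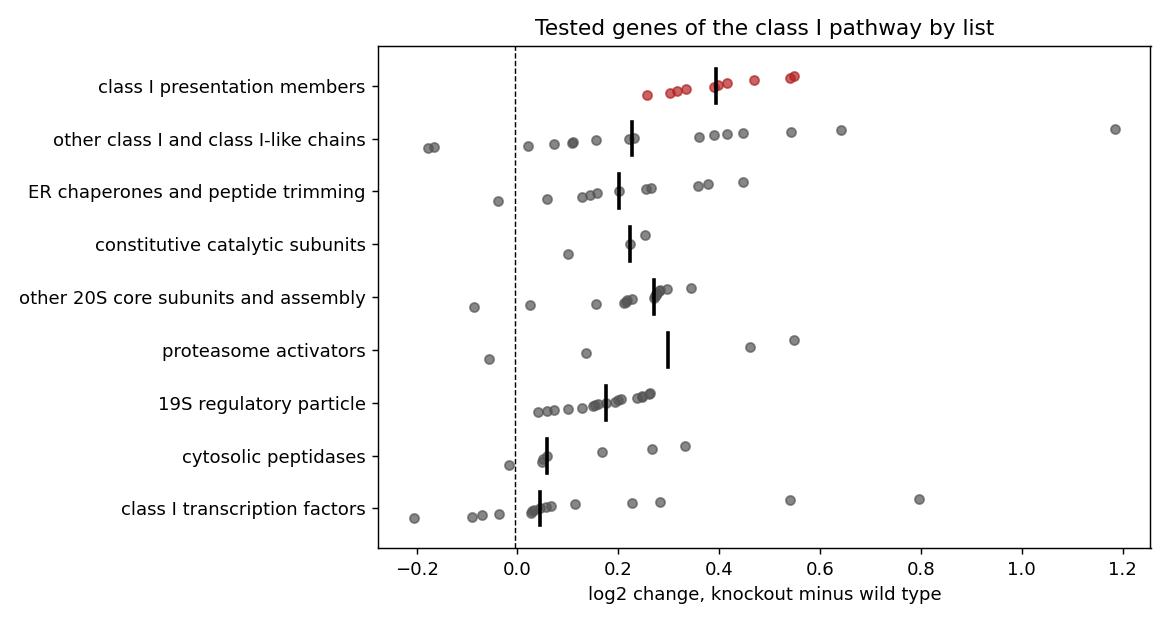
Log2 change, knockout minus wild type, of every tested gene in the list of 10 genes (red) and in 8 further lists of the pathway (grey), with a bar at each median and a dashed line at the median of all tested genes. The median of the 10 genes is 0.39, and those of the other lists run from 0.04 for the transcription factors to 0.30 for the activators.

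Over the 6 libraries the mean deviation of the 10 genes was followed most closely by AW112010 (Pearson r = 0.998), Gbp2 (0.996), H2-T22 (0.995), Tgtp2 (0.993) and Oasl2 (0.992), a description over libraries that share a genotype difference and scaling. Gbp2, an interferon-inducible GTPase, had 46.6 CPM in knockout, against 21.3 CPM in wild type on average, and Tgtp2, another such GTPase, had 14.2 CPM in knockout, against 4.95 CPM in wild type. Neither passed edgeR at the adjusted threshold (adjusted p = 0.157 for Gbp2 and 0.154 for Tgtp2). With the other 9 members left aside, the profile of Nlrc5 over the 6 libraries was most like those of Fam172a (r = 0.990), Jak3 (0.990) and Pacsin2 (0.988). Among the 10 genes it ran closest to Tap1 (r = 0.990) and least close to B2m (r = 0.397).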

How the data were processed

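The values are the authors' deposited counts, whole fragments per gene name without normalization, counted with featureCounts 1.5.1 over exons with no strand option, per the file headers. STAR 2.3.0e and the build GRCm38.p3 are named in the submitters' processing notes, and per the labels' protocols the library kit was a stranded one for mRNA. A further 6 count columns, which match none of the samples, were left aside.

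The members and the lists were chosen with earlier results of these data known. The named genes follow 1 rule, except markers and those said to be named after their values were seen: the 10 members, Psmb5, Psmb6 and Psmb7, in each further list the genes past the threshold or else the 2 with the smallest p, the 5 genes most like the mean of the members and the 3 most like Nlrc5 (mean log2 CPM of at least 3). Not every gene chosen this way is reported here. Marker lists of naive follicular B, T, NK, macrophage, dendritic, granulocyte, erythroid and plasma cells were summed as CPM.

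The genotypes were compared with edgeR 4.0.16 in R 4.3.3 (TMM, filterByExpr with a minimum count of 10, robust quasi-likelihood F test), with Benjamini-Hochberg adjustment over all 13604 tested genes and a threshold of 0.05. DESeq2 1.42.0 and limma 3.58.1 (voom) served as alternatives, beside other scalings, other filters, a term for the libraries numbered 4, the libraries numbered 2 and 3 alone, and leaving out each library. Differences between single libraries and likeness used log2 of CPM plus 0.5. The common biological coefficient of variation was 12.4%, and 3 counts correspond to 0.0679 to 0.0857 CPM in a library, which covers counting error only.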

Additional observations from a re-analysis of the deposited data

Results flagged for a closer look

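For 2 genes the genotype difference was called as differing between the libraries numbered 4 and the others. They were Psmb7, the constitutive counterpart of Psmb10, and Bcap31, a protein of the endoplasmic reticulum. These 2 calls stood among 99 tested genes of the members and the other pathway lists, near the 1.19% called among all tested genes. The calls thus do not set the pathway apart. Of the 99 genes, 84 had an interaction estimate below 0, and the share of all tested genes below 0 is not given here. For Psmb7 the log2 difference, knockout minus wild type, was 0.48 between the libraries numbered 2 and 3 and -0.14 between the libraries numbered 4, and the interaction was -0.62 (SE 0.12, edgeR adjusted p = 0.0161). Psmb7 had 79.3, 75.3 and 72.3 CPM in knockout libraries 2, 3 and 4, against 52.0, 58.8 and 79.6 CPM in wild-type libraries 2, 3 and 4, so that wild-type library 4 was the highest of all 6. For Bcap31 the difference was 0.42 between the libraries numbered 2 and 3 and -0.16 between those numbered 4, with an interaction of -0.58 (SE 0.10, edgeR adjusted p = 0.00865). The lone libraries numbered 4 in each genotype were assumed to vary like the others, and the cause was not tested.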

How the results depend on the processing

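Of the members, 0 were called higher in knockout under the other scalings, the stricter filter (1 CPM in 3 libraries), limma-voom and the replicate block. They numbered 2 without a filter (H2-K1 and Psmb8), 3 with DESeq2, 2 with a term for the libraries numbered 4, 4 in the libraries numbered 2 and 3 alone, and 0 to 3 when each library was left out, with 3 (B2m, Psmb8 and Psmb10) without wild-type library 4. The median log2 change of the members kept its sign throughout, from 0.25 without knockout library 2 to 0.50 in the libraries numbered 2 and 3. Over all genes, 25 were called higher and 30 lower. Those counts were 160 higher and 102 lower without a filter, 197 and 152 with DESeq2, 353 and 246 with a term for the libraries numbered 4, and 1871 and 1436 in the libraries numbered 2 and 3. Leaving out 1 library gave 9 to 630 higher and 8 to 270 lower, the most without wild-type library 4. With the replicate block 35 were higher and 50 lower. Same-numbered libraries shared deviations from their group means with correlations of 0.0750, 0.278 and 0.448 for numbers 2, 3 and 4, so the numbers do not pair the libraries in every case. The difference in the log2 ratio of Psmb8 to Psmb5, knockout minus wild type, ran from -0.0463 (without wild-type library 4) to 0.300 when each library was left out. The estimate for Pacsin2, near 0 at 0.03, was -0.0176 with library size alone. Of the values of single genes under all alternatives, 461 stayed on their side of the threshold, 48 crossed to pass it and 1 changed sign. The cause of these shifts was not tested.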
